A study of Mus musculus with 6 samples.

Results

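The triad genes of excitation-contraction coupling were examined in leg muscle of mouse fetuses at embryonic day 18.5, a set of 10 genes out of the 56262 listed in the count table. The set held the ryanodine receptors *Ryr1* and *Ryr3*, the calcium channel subunits *Cacna1s*, *Cacna2d1*, *Cacnb1* and *Cacng1*, the adaptor *Stac3*, the junctophilins *Jph1* and *Jph2*, and triadin, *Trdn*. The genes were found by matching the Ensembl identifiers of the table to GENCODE release M21 symbols, and all 10 had counts high enough to be tested. Total RNA of 3 wild type (WT) samples and 3 *SYISL* knockout (KO) samples was sequenced to examine what *SYISL*, a long noncoding RNA, does in embryonic muscle development. The KO mice came from a line made in earlier work. WT mice were bred with WT mice and KO mice with KO mice, so the genotype of the fetus and that of its mother cannot be told apart. Litters, the number of fetuses per sample, sex and strain background of the samples are not given in the sources used here, and p-values measure the spread between these samples, which may be technical. No gene of the annotation carries the symbol of *SYISL*, so the deletion was not checked in these counts. The labels name no treatment for any of the 6 samples.

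The triad is the junction of skeletal muscle fibers at which a transverse tubule, an inward fold of the plasma membrane, lies between a pair of sarcoplasmic reticulum cisternae. When the fiber membrane is depolarized, the voltage sensor in the tubule, built around the subunit encoded by *Cacna1s*, opens the release channel RyR1 in the facing reticulum membrane, and calcium flows to the myofibrils. The junctophilins hold both membranes together, triadin links the release channel to the calcium-binding calsequestrins inside the reticulum, and STAC3 is needed for the voltage sensor to reach the membrane and work there. Mice without *Ryr1*, *Cacna1s* or *Stac3* are known to die at birth with muscle that does not contract.

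Samples held 82054811 to 102233181 counts. The 10 triad genes took 0.106% to 0.114% of the counts of each WT sample and 0.162% to 0.176% of each KO sample. The 12 genes listed as muscle fiber markers were present in all 6 samples, as the label of the tissue says, with a summed level of 15880 to 17126 CPM (counts per 1000000 counts of the library) in WT and 33056 to 42279 CPM in KO. Among them *Tnnc2* had only 51 to 133 counts, and 592 of its 800 exonic bases lie under *Ube2c* of the opposite strand. Levels here are CPM of library sizes scaled by the trimmed mean of M-values (TMM). A gene was called where the edgeR quasi-likelihood test gave an adjusted p under 0.05 and the genotypes differed by over 1.5-fold.

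All 10 triad genes were higher in KO than in WT leg muscle. In each of the 10, the lowest KO sample lay above the highest WT sample, and the same was true of 27.3% of the 22071 genes tested. Of the 10 genes, 6 were called higher (*Trdn*, *Cacng1*, *Jph1*, *Cacna1s*, *Jph2* and *Cacnb1*) and 0 were called lower, where 8.31% of all genes tested were called higher and 8.39% lower. The other 4 genes, *Ryr1*, *Cacna2d1*, *Ryr3* and *Stac3*, had an edgeR adjusted p under 0.05 and a change smaller than 1.5-fold. Without the fold threshold 10 of 10 were higher, beside 21.9% of all genes tested, and past 2-fold 4 of 10 were higher (*Trdn*, *Cacng1*, *Jph1* and *Cacna1s*), beside 3.51%. With DESeq2 and the threshold of 1.5-fold 6 of 10 were higher, beside 6.70% of the genes it tested. The median log2 fold change (log2FC) of the 10 genes was 0.64, and that of all genes tested was -0.0041. Because these are bulk samples, more muscle fibers in a sample and more RNA of these genes per fiber cannot be told apart, and the same holds for fewer cells of another type and less RNA per cell.

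**Figure D1:**
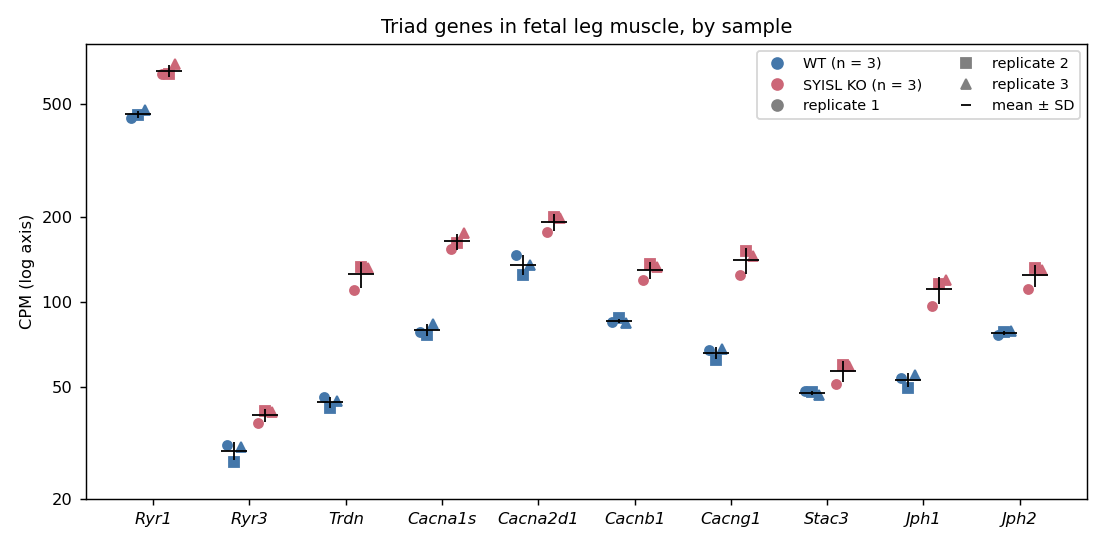
TMM-scaled level (CPM, log axis from 20) of each of the 10 triad genes in the 3 WT (blue) and 3 KO (red) samples. Symbols are samples, with a shape for each replicate number, and crosses are the mean ± SD; for every gene the 3 KO symbols lie above the 3 WT symbols.

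*Ryr1* (ENSMUSG00000030592.18, GRCm38 chr7:29003344-29125179, minus strand) encodes the release channel of skeletal muscle and had the most counts of the 10 genes. Its level was 447, 459 and 476 CPM in WT replicates 1 to 3 and 639, 642 and 696 CPM in KO replicates 1 to 3. The groups did not overlap, and the lowest KO sample lay far above the highest WT sample. The mean was 461 ± 14.8 CPM in WT and 659 ± 31.9 in KO (SD, n = 3 each), a log2FC of 0.52 with a standard error of 0.054 (edgeR adjusted p = 5.10e-05). The 95% interval of this log2FC, 0.39 to 0.64, included the threshold of 1.5-fold.

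*Ryr3* (ENSMUSG00000057378.15, chr2:112631355-113217096, minus strand) encodes a second release channel that fetal and newborn muscle makes beside RyR1 and that most adult limb muscles lose. It had 31.2, 27.1 and 30.6 CPM in WT and 37.2, 41.0 and 40.5 in KO. The groups did not overlap, and WT replicate 2 was the lowest sample. The log2FC was 0.42 (standard error 0.063, edgeR adjusted p = 5.18e-04), or 1.34-fold.

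*Trdn* (ENSMUSG00000019787.9, chr10:33080554-33476709, plus strand) had the largest change of the 10 genes. Its level was 45.8, 42.0 and 44.3 CPM in WT and 109.9, 132 and 132 in KO. Every KO sample was more than 2 times the highest WT sample. The mean rose from 44.1 ± 1.90 to 125 ± 12.9 CPM (SD, n = 3 each), which is 2.83-fold and a log2FC of 1.502 (standard error 0.072, edgeR adjusted p = 3.34e-07).

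The voltage sensor is a dihydropyridine receptor, an L-type calcium channel made of a pore subunit and 3 kinds of accessory subunit. *Cacna1s* (ENSMUSG00000026407.17, chr1:136052750-136119822, plus strand) encodes the pore and voltage-sensing subunit. It had 78.2, 75.9 and 83.5 CPM in WT and 154, 161 and 175 in KO. Both groups were tight, with an SD of 3.90 CPM in WT and 10.8 in KO, and they lay far apart. *Cacna1s* rose 2.06-fold, a log2FC of 1.05 (standard error 0.057, edgeR adjusted p = 7.14e-07).

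The annotation places an antisense gene, *Gm37759*, over 1309 of the 6550 exonic bases of *Cacna1s*. *Gm37759*, looked up after the values of *Cacna1s* were seen, had 77 to 104 counts in WT and 634 to 722 counts in KO, a log2FC of 2.81 (standard error 0.092, edgeR adjusted p = 5.93e-08). The strand setting of the counting is not given in the sources used here, so reads of the overlap cannot be assigned to one of both genes. The counts of *Gm37759* were few beside those of *Cacna1s*, which had 6271 to 8813 counts in WT and 14446 to 17054 in KO. They do not limit the effect of the overlap on *Cacna1s*, because how reads on both genes were counted is not given. Per-length values of *Cacna1s* below use all 6550 exonic bases. Of the other 9 triad genes, *Ryr3*, *Ryr1*, *Cacnb1* and *Jph1* shared 4.83% or less of their exonic bases with genes of the opposite strand, and the rest shared none.

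*Cacng1* (ENSMUSG00000020722.5, chr11:107703218-107716522, minus strand) encodes the gamma subunit, which is particular to skeletal muscle. It had 67.4, 61.9 and 68.0 CPM in WT and 124, 151 and 145 in KO. The KO samples were spread more widely than the WT samples, with KO replicate 1 lowest. The log2FC was 1.09 (standard error 0.073, edgeR adjusted p = 2.68e-06), or 2.13-fold, close to that of *Cacna1s*.

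*Cacnb1* (ENSMUSG00000020882.17, chr11:98001508-98023034, minus strand) encodes the beta subunit, which binds the pore subunit on its inner side. Its level was 84.8, 87.3 and 84.2 CPM in WT and 119, 136 and 133 in KO. The groups did not overlap, and the mean rose from 85.4 ± 1.64 to 129.5 ± 8.91 CPM (SD, n = 3 each). The rise of 1.52-fold (log2FC 0.60, standard error 0.052, edgeR adjusted p = 1.42e-05) was just past the fold threshold, and without KO replicate 2 the log2FC was 0.56 and *Cacnb1* was no longer called.

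*Cacna2d1* (ENSMUSG00000040118.15, chr5:15934691-16374511, plus strand) encodes the alpha-2-delta subunit, which lies on the outer face of the membrane and is made in many tissues. It had 146, 124 and 135 CPM in WT and 176, 199.98 and 197 in KO. The groups did not overlap, with WT replicate 1 the highest WT sample and KO replicate 1 the lowest KO sample. Its log2FC of 0.50 (standard error 0.068, edgeR adjusted p = 2.68e-04), or 1.42-fold, was smaller than the threshold.

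*Stac3* (ENSMUSG00000040287.9, chr10:127501686-127508823, plus strand), the adaptor of the voltage sensor, had the smallest change of the 10 genes. It had 48.2, 47.7 and 46.6 CPM in WT and 51.2, 59.8 and 59.0 in KO. KO replicate 1 was little above the highest WT sample, and the other KO samples were farther from it. The log2FC was 0.25 (95% interval 0.12 to 0.39, edgeR adjusted p = 0.00615), or 1.19-fold, and it was 0.33 without KO replicate 1.

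The junctophilins *Jph1* and *Jph2* are anchored in the sarcoplasmic reticulum and bind the tubule membrane. *Jph1* (ENSMUSG00000042686.5, chr1:16964560-17097889, minus strand), the form found mainly in skeletal muscle, had 53.7, 49.4 and 55.1 CPM in WT and 96.7, 116 and 119 in KO. It rose 2.09-fold (log2FC 1.07, standard error 0.077, edgeR adjusted p = 4.38e-06). *Jph2* (ENSMUSG00000017817.11, chr2:163336242-163397993, minus strand), which heart muscle makes as well, had 76.0, 77.8 and 78.8 CPM in WT and 111, 132 and 129 in KO. It rose 1.60-fold (log2FC 0.68, standard error 0.062, edgeR adjusted p = 2.01e-05). Neither gene had overlapping groups, and in both KO replicate 1 was the lowest KO sample.

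KO replicate 1 was the lowest KO sample in 10 of 10 triad genes. It was also lowest in the summed muscle fiber markers, with 33056 CPM against 41407 and 42279 CPM in the other KO samples. Among the WT samples, WT replicate 2 was lowest in 6 of 10 genes and had the lowest marker sum, 15880 CPM. With KO replicate 1 left out, *Trdn* had a log2FC of 1.59, *Cacng1* 1.18 and *Jph1* 1.16. Each triad gene kept its direction and an edgeR, DESeq2 or limma-voom adjusted p under 0.05 under each of 16 other settings, the largest of these p-values being 0.0351 for *Stac3*.

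Promoters are printed for 2 genes that face each other across the triad, the voltage sensor gene *Cacna1s* (called higher) and the release channel gene *Ryr1* (not called). Windows run from 250 bases before to 50 bases after the transcript start, in RefSeq on GRCm38.p6. Capitals mark each E-box, the sequence CANNTG that the MyoD family of muscle transcription factors binds, searched on both strands, which read alike apart from the N bases. The *Cacna1s* window (chr1:136052561-136052860, plus strand) and the *Ryr1* window (chr7:29125102-29125401, minus strand) read as follows, 5′ to 3′.
Cacna1s: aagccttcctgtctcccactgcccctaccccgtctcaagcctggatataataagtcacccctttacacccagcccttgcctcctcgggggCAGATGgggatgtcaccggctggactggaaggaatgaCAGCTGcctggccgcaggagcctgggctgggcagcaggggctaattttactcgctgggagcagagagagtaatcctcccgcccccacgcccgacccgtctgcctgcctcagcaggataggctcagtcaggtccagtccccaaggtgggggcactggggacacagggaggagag
Ryr1: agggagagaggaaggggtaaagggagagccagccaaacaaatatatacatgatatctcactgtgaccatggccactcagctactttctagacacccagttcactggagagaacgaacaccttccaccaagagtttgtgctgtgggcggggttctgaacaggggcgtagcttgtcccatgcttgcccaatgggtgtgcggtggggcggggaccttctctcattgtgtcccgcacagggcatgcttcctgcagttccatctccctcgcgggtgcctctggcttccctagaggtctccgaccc

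The *Cacna1s* window held 2 E-boxes, CAGATG at base -160 and CAGCTG at base -123 from the start, and the *Ryr1* window held 0. Of all 32851 windows, 72.3% held at least 1 E-box and 16.3% held CAGCTG. Windows were given for 5 of the 10 triad genes, 7 in all. *Jph2* had CAGCTG in both of its overlapping windows, *Cacnb1* had CACATG in 1 of 2 windows, and *Cacna2d1* had no E-box. The MEF2 motif was found in 0 of the 7 windows and in 0.557% of all windows. No match says only that these letters are not in the window.

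Levels of different genes can be compared only per length, and for this CPM was divided by the kilobases (kb) of annotated exon. In WT, *Cacng1* was highest at 52.7 ± 2.69 CPM per kb and *Ryr1* next at 21.1 ± 0.676 (SD, n = 3). *Cacnb1* (18.9 ± 0.363), *Stac3* (18.7 ± 0.332) and *Jph2* (18.2 ± 0.337) followed, and the samples of these neighbors overlapped. *Cacna1s* (12.1 ± 0.596), *Cacna2d1* (10.9 ± 0.875) and *Jph1* (10.6 ± 0.599) formed a lower group whose neighbors also overlapped. *Trdn* at 4.71 ± 0.203 and *Ryr3* at 1.56 ± 0.117 CPM per kb were lowest and did not overlap with any other.

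In KO, *Cacng1* stayed highest at 112 ± 11.5 CPM per kb and *Ryr3* lowest at 2.09 ± 0.110. *Ryr1* (30.2 ± 1.46), *Jph2* (29.2 ± 2.64) and *Cacnb1* (28.6 ± 1.97) overlapped in level. *Stac3* and *Jph1* overlapped as well. *Cacna1s* was at 25.0 ± 1.65 CPM per kb, above the 22.3 ± 1.88 of *Stac3*, which had been above it in WT. That order depends on the length used. Per kb of the longest coding transcript, *Stac3* had the higher mean in both genotypes. It was 26.5 ± 0.472 against 12.7 ± 0.624 for *Cacna1s* in WT and 31.7 ± 2.67 against 26.1 ± 1.73 in KO. *Jph1* was at 22.1 ± 2.41, *Cacna2d1* at 15.4 ± 1.04 and *Trdn* at 13.3 ± 1.38 CPM per kb. The genes between the ends change places when the longest coding transcript is used as the length: *Trdn* was then at 9.76 ± 0.421 CPM per kb in WT and at 27.6 ± 2.85 in KO.

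Ratios between triad genes within a sample do not depend on the scaling of libraries, and 8 were fixed. With 3 against 3 samples, the exact two-sided permutation test cannot go below p = 0.1, and 6 of the 8 ratios reached it, with an adjusted p of 0.133 over the 8 ratios. Per length, *Trdn* was at 0.239, 0.214 and 0.217 of *Ryr1* in WT and at 0.402, 0.482 and 0.443 in KO. The groups did not overlap, and the mean ratio was 1.97 times higher in KO. *Cacna1s* over *Ryr1* was 0.551 to 0.585 in WT and 0.804 to 0.840 in KO, again without overlap.

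Within the voltage sensor, the ratio of the gamma to the pore subunit overlapped between the genotypes and the ratios of the other subunits and of *Stac3* did not. *Cacng1* over *Cacna1s* was 4.27 to 4.52 in WT and 4.21 to 4.93 in KO, a log2 difference of 0.041 with overlapping groups (exact permutation p = 0.7), which turned to -0.026 without KO replicate 2. *Cacnb1* over *Cacna1s* was 1.46 to 1.66 in WT and 1.09 to 1.23 in KO, a log2 difference of -0.45. *Cacna2d1* over *Cacna1s* was 0.853 to 0.984 in WT and 0.594 to 0.656 in KO, a log2 difference of -0.54. *Stac3* over *Cacna1s*, per kb of annotated exon, was 1.44 to 1.62 in WT and 0.855 to 0.957 in KO. Its log2 difference of -0.79, which does not depend on the length used, was the most negative of the 8 ratios.

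*Jph1* over *Jph2* was 0.540 to 0.602 in WT and 0.741 to 0.783 in KO, a log2 difference of 0.39 without overlap. *Ryr3* over *Ryr1* was 0.0679 to 0.0803 in WT and 0.0669 to 0.0736 in KO. These overlapped, and the log2 difference was -0.096 (exact permutation p = 0.2, adjusted p = 0.229).

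**Figure D2:**
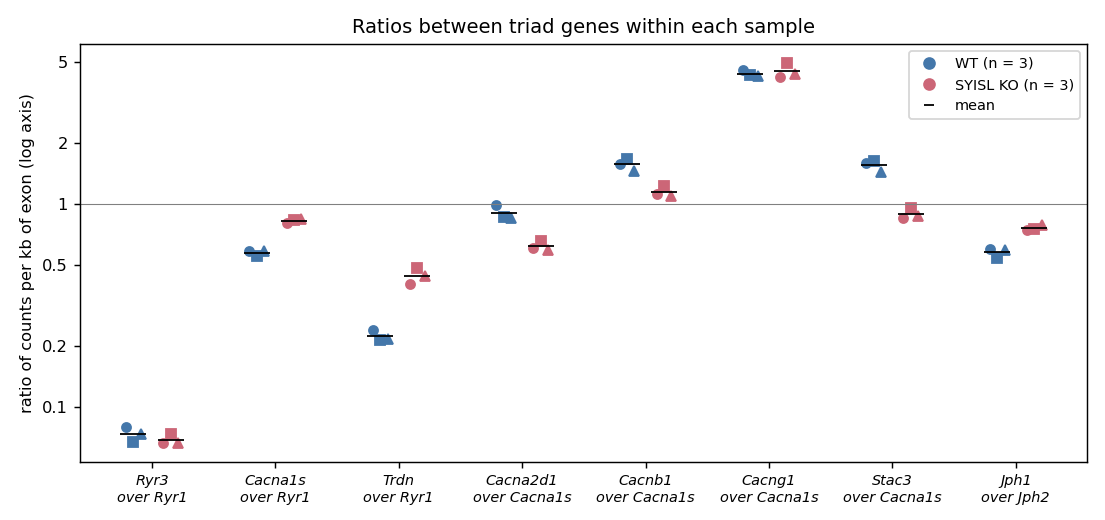
Per-length ratio (log axis) of each of 8 pairs of triad genes in every sample, for WT (blue) and KO (red). Symbols are samples, with a shape for each replicate number, and bars are means of 3; 6 ratios show no overlap between genotypes, while *Ryr3* over *Ryr1* and *Cacng1* over *Cacna1s* overlap.

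Shares within each gene family set the triad genes beside their paralogs, again per length. They are shares of the genes listed here, and their size depends on the length used. *Cacna1c* has 21191 exonic bases and a longest coding transcript of 13162 bases. For *Cacna1s* these are 6550 and 6251 bases. The alpha-1 list held *Cacna1s*, *Cacna1c*, *Cacna1d*, *Cacna1a* and *Cacna1e*, without *Cacna1b* and *Cacna1f*. The gamma list held *Cacng1*, *Cacng4*, *Cacng5*, *Cacng6* and *Cacng7*, without *Cacng2*, *Cacng3* and *Cacng8*. *Cacna1s* made up 79.2% ± 0.739 of the listed high-voltage-activated alpha-1 subunits in WT and 88.5% ± 1.09 in KO (SD, n = 3 each). *Cacna1c*, the pore subunit of heart and smooth muscle, made up 12.3% in WT and 7.04% in KO, while its own level was 39.8 CPM in WT and 41.9 in KO (log2FC 0.076, edgeR adjusted p = 0.279). *Cacnb1* made up 61.6% ± 0.277 of the beta subunits in WT and 71.8% ± 2.60 in KO, beside *Cacnb3* at 45.6 and 43.3 CPM (log2FC -0.072, adjusted p = 0.254). *Cacng1* made up 63.5% to 66.1% of the listed gamma subunits in WT and 75.4% to 76.8% in KO. *Cacna2d1* made up 86.5% to 88.7% of the alpha-2-delta subunits in WT and 89.1% to 91.4% in KO. No sample of one genotype overlapped with the other in these shares of the triad genes.

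*Ryr1* made up 92.4% to 93.4% of the ryanodine receptors in WT and 93.0% to 93.6% in KO, and *Ryr3* most of the rest, with overlapping groups. *Ryr2*, the release channel of heart, was at 0.209% in WT and 0.178% in KO. *Stac3* was 90.7% to 91.6% of the STAC adaptors in WT and 91.4% to 92.5% in KO, which also overlapped. *Jph1* made up 33.7% to 36.3% of the junctophilins in WT and 41.6% to 43.1% in KO. *Jph2* made up 60.3% to 62.3% in WT and 55.1% to 56.2% in KO, so *Jph2* stayed the more abundant of both per length.

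**Figure D3:**
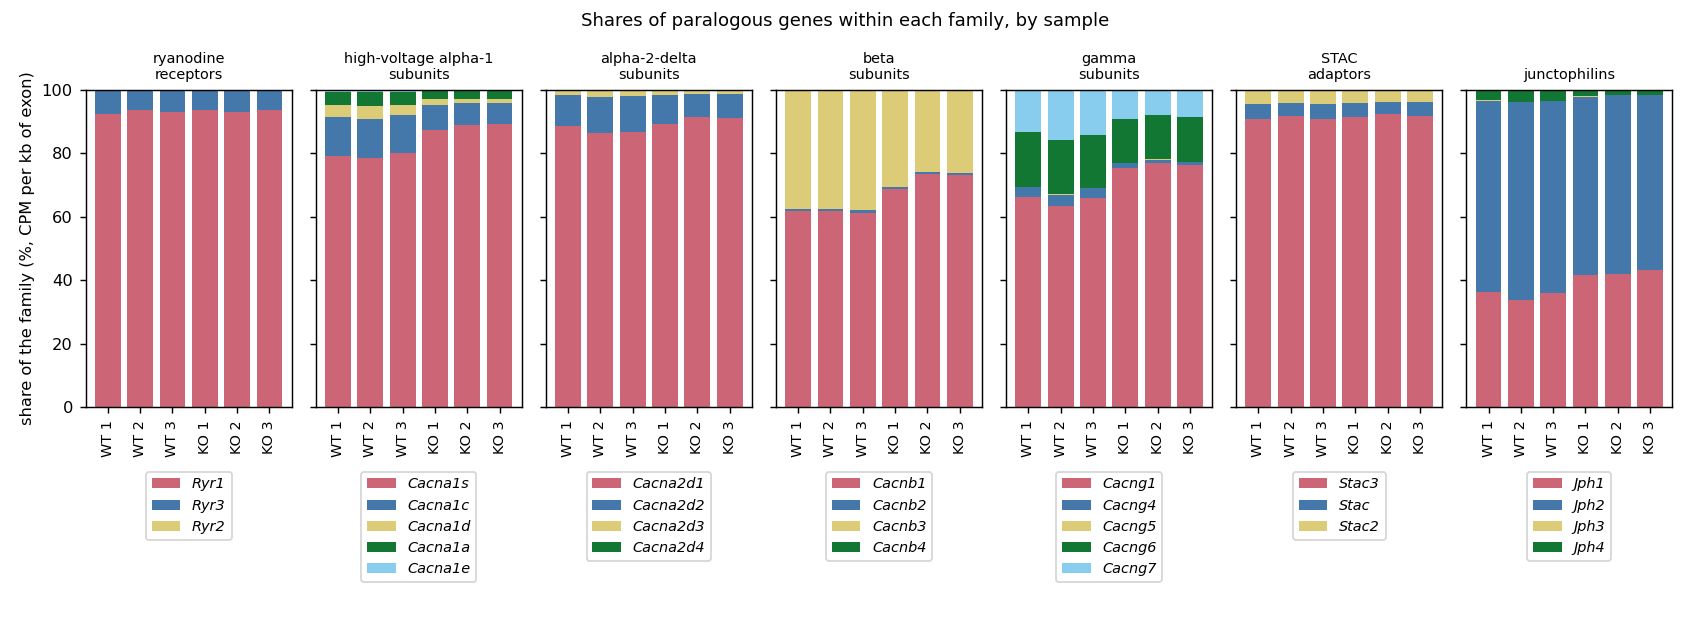
Share of each paralog among the listed genes of its family (%, CPM per kb of exon), 1 bar per sample and 1 panel per family, with the first triad gene of each family at the bottom. The shares of *Cacna1s*, *Cacna2d1*, *Cacnb1*, *Cacng1* and *Jph1* are larger in each KO sample than in each WT sample, and those of *Ryr1* and *Stac3* overlap.

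Of the 19 paralogs listed, 18 were tested, and their median log2FC was 0.082. Of these 18, 0 were called higher, beside 8.31% of all genes tested, and 0 lower, beside 8.39%. By edgeR adjusted p alone, *Ryr2* (log2FC 0.28, adjusted p = 0.0483) and *Cacng6* were higher and *Cacna1d* and *Cacng4* lower, so 2 of 18 were higher beside 21.9% of all genes and 2 were lower beside 23.1%. *Ryr2* did not pass with DESeq2 (adjusted p = 0.183), limma-voom (0.0503), library size only (0.136), no filter (0.118), a replicate block (0.0843) or any 1 sample left out (0.0660 to 0.143). It passed in edgeR with RLE factors (adjusted p = 0.0456), upper-quartile factors (0.0202) and at least 10 counts in every sample (0.0470). It also passed with scaling without keratinocyte and red blood cell markers (0.0485). *Cacng6*, a gamma subunit also made in skeletal muscle, had 27.2 ± 0.841 CPM in WT and 40.7 ± 4.29 in KO. Its log2FC of 0.58 (adjusted p = 1.55e-04) was just under the threshold. *Cacng4*, a gamma subunit of the kind that serves glutamate receptors in neurons, had a log2FC of -0.52 (adjusted p = 1.59e-04), and *Cacna1d*, an L-type pore subunit of neurons and pacemaker cells, one of -0.29 (adjusted p = 0.0326). *Cacna1d* did not pass with upper-quartile factors (adjusted p = 0.0849) or without WT replicate 1 (0.0741), WT replicate 2 (0.0930), KO replicate 2 (0.109) or KO replicate 3 (0.111). The paralogs *Cacna1a*, *Cacna1e*, *Cacna2d2*, *Cacna2d3*, *Cacnb2*, *Cacnb4*, *Cacng7*, *Stac*, *Stac2* and *Jph4* did not pass the test, at means of 1.38 to 30.9 CPM.

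Proteins that sit at the triad or in the sarcoplasmic reticulum beside the 10 genes formed a list of 20. Of these, 9 were called higher, beside 8.31% of all genes, and 0 lower, with a median log2FC of 0.55. *Casq1*, the calsequestrin of fast fibers to which triadin ties the release channel, rose most, from 252 ± 28.4 to 789 ± 94.7 CPM (log2FC 1.65, edgeR adjusted p = 1.98e-06). *Sypl2*, or mitsugumin 29, a membrane protein of the triad, rose from 136 ± 8.67 to 395 ± 50.7 CPM (log2FC 1.53). The other 7 called were *Tmem38a*, *Jsrp1*, *Hrc*, *Casq2*, *S100a1*, *Tmem38b* and *Srl*, with a log2FC of 0.63 or more. By adjusted p alone 12 were higher, beside 21.9% of all genes, and 3 lower, beside 23.1%. *Casq2*, picked out after its values were seen, had 200.4 CPM per kb in WT and 358 in KO and so stood above *Casq1* (129 CPM per kb) in WT and below it (405 CPM per kb) in KO.

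The 10 genes of the tubule and fiber membrane list included 5 called higher, beside 8.31% of all genes tested, and 0 lower, beside 8.39%, with a median log2FC of 0.61. *Ttn*, the giant protein of the sarcomere that is also a muscle fiber marker here, rose from 1871 ± 86.4 to 3456 ± 243 CPM (log2FC 0.88). *Ank1*, whose small muscle form ties the reticulum to the sarcomere, rose from 126 ± 4.12 to 209 ± 9.0 CPM (log2FC 0.73). *Cav3* and *Cavin4* were among the other genes called. *Bin1*, which shapes transverse tubules, had a log2FC of 0.58 and was just under the threshold.

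Of the 7 genes of store-operated calcium entry, by which the emptied reticulum is refilled from outside, 1 was called higher, beside 8.31% of all genes tested. This was *Stim1*, the calcium sensor of the reticulum, which rose from 87.7 ± 2.87 to 157 ± 12.1 CPM (log2FC 0.84, edgeR adjusted p = 3.14e-06). By adjusted p alone 5 of the 7 were higher, beside 21.9% of all genes, and the median log2FC was 0.28. Of the 4 RGK genes, which encode small GTPases that inhibit calcium channels, *Gem* was called higher, from 9.98 ± 0.606 to 16.1 ± 0.400 CPM (log2FC 0.69, adjusted p = 2.09e-05). By adjusted p alone 2 of the 4 were higher, beside 21.9% of all genes, and 2 lower, beside 23.1%. Over the 5 lists, 59 of 60 genes were tested, 16 were called higher, beside 8.31% of all genes, and 0 lower, beside 8.39%, and their median log2FC was 0.20.

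**Figure D4:**
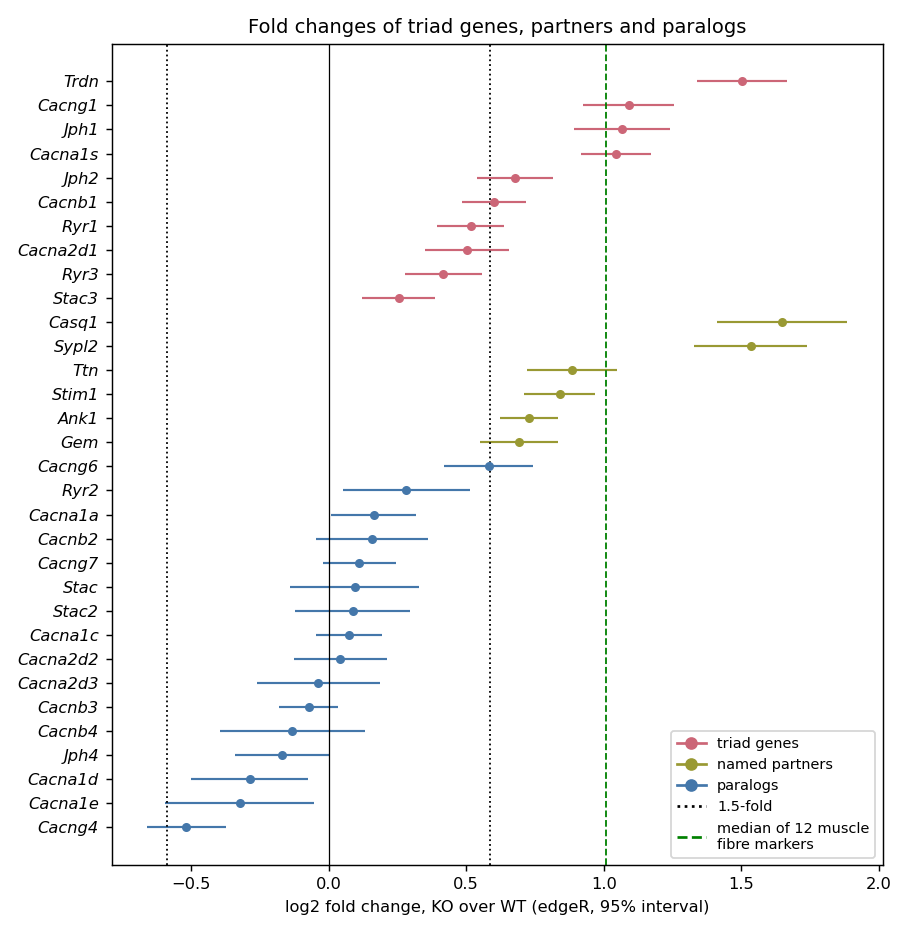
log2FC (KO over WT) with 95% intervals from the edgeR fit for the 10 triad genes (red), the named partner genes (olive) and the named paralogs (blue), with dotted lines at 1.5-fold in either direction and a dashed line at the median of the 12 muscle fiber markers, 1.01. Among the triad genes *Trdn* is highest at 1.502 and *Stac3* lowest at 0.25, and every paralog lies between the dotted lines.

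The level of muscle fiber markers differed between the genotypes by as much as that of many triad genes. All 12 markers were called higher in KO, with a median log2FC of 1.01, and their mean log2 CPM was 9.15 ± 0.0670 in WT and 10.2 ± 0.151 in KO, which is 1.05 higher. Set against that mean within each sample, *Trdn* was 0.45 higher in KO and *Cacng1* 0.036 higher on the log2 scale, both without overlap, as were 1.72% of all genes tested. For *Cacng1* the groups were barely apart, with -3.100 in WT replicate 1 and -3.096 in KO replicate 3. *Tnnc2*, at a mean of 1.02 CPM, weighs as much in the mean of the markers as each other marker. With *Tnnc2* left out of that mean, the groups of *Cacng1* overlap, so the separation of *Cacng1* rests on *Tnnc2*. *Jph1* (0.012) and *Cacna1s* (-0.0056) overlapped between the genotypes. The remaining 6 genes were lower in KO relative to the markers, with differences of -0.38 for *Jph2*, -0.45 for *Cacnb1*, -0.53 for *Ryr1*, -0.55 for *Cacna2d1*, -0.63 for *Ryr3* and -0.80 for *Stac3*, and their groups did not overlap. On this scale 88.9% of all genes tested were lower in each KO sample than in each WT sample.

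**Figure D5:**
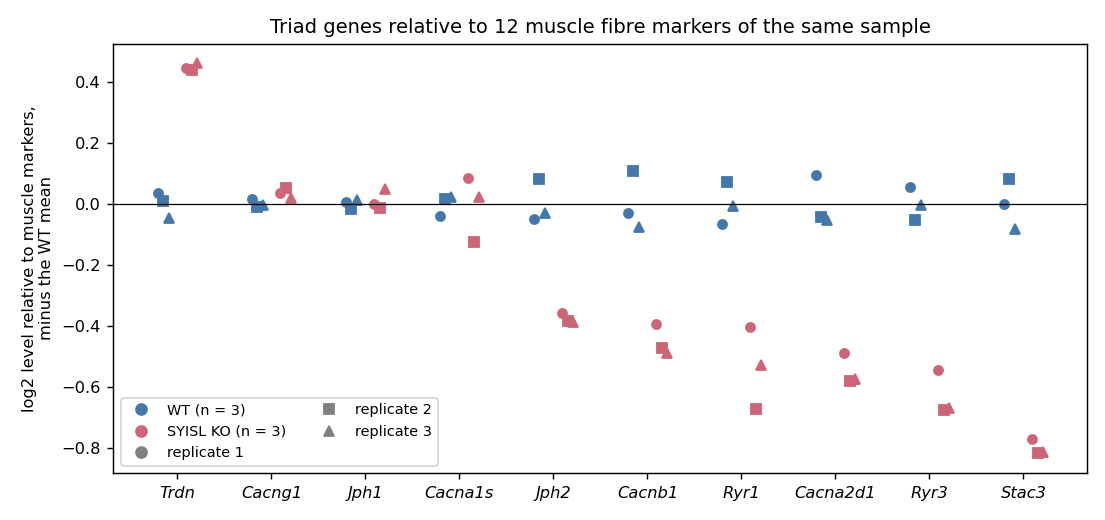
Level of each triad gene in each sample relative to the mean log2 CPM of 12 muscle fiber markers of that sample, minus the WT mean of that gene, on the log2 scale, with WT in blue, KO in red and a symbol shape for each replicate number. The KO samples of *Trdn* average 0.45, those of *Cacng1*, *Jph1* and *Cacna1s* lie near 0, and the means of the other 6 genes lie between -0.38 and -0.80.

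Markers of other cell types moved with genotype as well. All 12 keratinocyte markers were called lower in KO, and their summed level was 17155 to 25713 CPM in WT and 935 to 1046 in KO. All 4 red blood cell markers were lower, with sums of 1408 to 1715 CPM in WT and 205 to 230 in KO. All 5 fat markers were higher, with sums of 105 to 137 CPM in WT and 339 to 401 in KO. The summed levels of the 6 myoblast and satellite cell markers lay at 324 to 346 CPM in WT and 305 to 322 in KO, with 0 of 6 called. By adjusted p alone 3 of these 6 were lower, beside 23.1% of all genes tested, and 1 was higher, beside 21.9%. In 4 of the 6, each KO sample lay below each WT sample, as in 28.5% of all genes tested. The 5 fibroblast markers summed to 28236 to 31224 CPM in WT and 34380.0 to 35516 in KO, with 0 called and 4 higher by adjusted p alone. The 4 endothelium markers summed to 568 to 595 CPM in WT and 663 to 697 in KO, with 0 called and 3 higher by adjusted p alone. All 9 of these markers were higher in each KO sample than in each WT sample, as were 27.3% of all genes tested. Of the 5 heart markers tested 2 were higher (*Myh6* and *Actc1*) and 1 lower (*Myl7*), while *Nppa* and *Nppb* were not tested for lack of counts. *Actc1* was at 3247 CPM in WT and 5123 in KO. The labels name leg muscle and no heart, so these genes are not taken here as a measure of heart cells. Among the other lists, 1 of 5 smooth muscle and 1 of 5 Schwann cell markers were called higher, and 2 of 6 neuron markers lower. Of 6 cartilage and bone markers, 1 was called higher and 2 lower. Over all genes tested, 8.31% were called higher and 8.39% lower. By adjusted p alone, 4 Schwann cell, 2 smooth muscle and 2 cartilage and bone markers were higher. In the same way 0, 1 and 3 were lower. The most abundant neuron marker, *Stmn2*, was higher by adjusted p alone (log2FC 0.39, edgeR adjusted p = 5.49e-04). Scaling the libraries without the keratinocyte and red blood cell markers, a setting chosen after the data were seen, left 6 of 10 triad genes called higher. This setting hardly changed the scaling, with a log2FC of *Trdn* of 1.5014 in place of 1.5017. It therefore cannot show how these cell types bear on the calls. The part of the other cell types in the changes of the triad genes was not tested.

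Over the 6 samples, the mean log2 CPM profile of the 10 triad genes, centered on its mean, lay between -0.43 and -0.35 in WT and at 0.25, 0.44 and 0.45 in KO. Of 12361 other genes with at least 5 CPM on average, the most like it by Euclidean distance was *Sspn*, which encodes sarcospan of the dystrophin complex, at a distance of 0.0199. *Ppp1r3c* (0.0492), which targets a phosphatase to glycogen, *Rcsd1* (0.0527), *Fem1a* (0.0560) and *Pacsin3* (0.0625) followed. Their log2FC lay between 0.74 and 0.79, and the 3 KO samples of *Sspn* had 141, 159 and 159 CPM against 87.4 to 91.7 CPM in WT.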

How the data were processed

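Total RNA of leg muscle from 3 WT and 3 *SYISL* KO samples at embryonic day 18.5 was sequenced by the authors on an Illumina HiSeq in paired-end mode. Per the labels and methods, the authors trimmed reads with Trim Galore 0.6.6, mapped them to mm10 with HISAT2 2.2.1 and counted them per gene with featureCounts 2.0.1. The values deposited by the authors are whole-number counts, neither normalized nor filtered. The sources used here do not give the gene models or strand option used in counting, nor say if reads or pairs were counted. The table of the series and the files of single samples differed in 0 values. Replicates were not duplicates of each other.

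Counts were tested in R 4.3.3 with edgeR 4.0.16 (filterByExpr, TMM, quasi-likelihood F-test on genotype, Benjamini-Hochberg over 22071 genes). The authors used DESeq2 and a fold change of 1.5, and their text gives the threshold of 0.05 both as a p-value and as an adjusted p. Calls here need an adjusted p under 0.05 and that fold change. Of 56262 identifiers, 55227 matched GENCODE M21 and 1035 did not. Ratios were compared by exact two-sided permutation over samples. The member genes, the 5 pathway lists and the marker lists were chosen with earlier results of these data known. Named were all 10 triad genes, paralogs with a mean of at least 1 CPM, the 2 largest rises and 2 largest falls called in each other list at a mean of at least 5 CPM, and the 5 genes of most like profile. The values of 2 genes of the pathway lists are not reported here. Genes named outside this rule were chosen after their values were seen. Tests were also run on simulated data. Alternatives were other scaling factors, DESeq2 1.42.0, limma-voom 3.58.1, other filters and thresholds, a replicate block and leaving out each sample. Samples with the same replicate number did not deviate together (correlations of -0.200, -0.134 and 0.0472), so they were not paired.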

Additional observations from a re-analysis of the deposited data

How the results depend on the processing

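The number of triad genes called higher was 6, and 5 to 6 under other scaling, DESeq2, limma-voom, other filters and each sample left out, with 0 called lower in each. It was 10 without the fold threshold, 10 with adjusted p and no overlap (chosen after seeing the data) and 4 at a fold change over 2. *Cacnb1* lost its call with library size only (log2FC 0.53) and without KO replicate 2 (0.56). Of the 5 pathway lists, 16 genes were called higher, 28 without the fold threshold and 4 at a fold change over 2, and 15 to 19 with each sample left out. The 0 called lower became 7 without the fold threshold and 0 to 1 with a sample left out, the 1 being *Rem2* (log2FC -0.64) without KO replicate 2. With a replicate block, the numbers of triad genes (6) and pathway genes (16) called higher were the same, and the numbers over all genes were 1744 higher and 1777 lower in place of 1835 and 1852. The ratio of *Cacng1* to *Cacna1s* (0.041 on the log2 scale) turned to -0.026 without KO replicate 2 and ranged from -0.026 to 0.086 over the samples left out. *Cacna2d2* (0.043) turned to -0.025 with library size only and -0.013 without KO replicate 1 (range -0.013 to 0.089 with each sample left out), and *Cacna2d3* (-0.036) to 0.031 with upper-quartile factors and 0.010 without WT replicate 3 (range -0.089 to 0.010). *Cacng6* was called with RLE factors (0.59), upper-quartile factors (0.65), without WT replicate 1 (0.60) and without KO replicate 1 (0.67). The causes were not tested. With 3 samples a group, the exact test of ratios cannot pass 0.05.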
